A study of Mus musculus with 743 samples.

Results

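The genes described here are 50 genes of mitosis and the spindle, taken as a fixed list by symbol from the 25700 genes of a single-cell count table. All 50 were found in the table, and none of them was used to sort the cells into classes. The cells were Schwann cells, the glia that ensheathe axons in peripheral nerves, isolated from the sciatic nerves of mice at postnatal day 1 (P1) and profiled in single wells with Smart-Seq2, a full-length cDNA method without molecular identifiers. The mice carried P0Cre, the ReYFP reporter that P0Cre switches on, and a βAct-DsRed transgene on a C57BL/6J background, and every cell compared below shares these alleles. The sort for eYFP kept cells in which P0Cre had been active at some time and left the rest of the nerve out. Each of the 2 plates held cells of its own pair of mice, 1 male and 1 female pooled, which makes plates the replicates (n = 2), whereas cells within a plate are not replicates of each other.

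Of 743 wells, 621 held reads of at least 1500 genes and were kept, 287 on plate 1 and 334 on plate 2. Counts per 1000000 reads (CPM) of 3 genes outside the list sorted them. Cells with a summed CPM of Mki67 (a nuclear protein of dividing cells) and Top2a (topoisomerase II alpha) of at least 50 were called cycling, and of the remainder those with an Ncmap CPM of at least 50 were called promyelinating, since Ncmap encodes a membrane protein of cells that have begun the myelin program. This gave 53 and 57 cycling cells, 59 and 60 promyelinating cells, and 175 and 217 other cells on plates 1 and 2. The cells closest to the first cut had 44.2 CPM with 15 members read and 63.4 CPM with 19 members read, and those closest to the Ncmap cut had 43.3 and 50.3 CPM. The counts of each class were summed per plate, which gave 6 sums of 45073128 to 172878954 reads. Sox10, the defining transcription factor of Schwann cells, was read in all classes, whereas Cdh5, Kdr, Pdgfra, Ptprc, Tyrobp, Acta2 and Rgs5, which define endothelial, fibroblast-like, immune and mural cells, had 0 reads in all 6 sums. Other genes on those marker lists had reads, and over all genes of a list the summed level ran from 0 to 2.91 CPM for endothelial, 0 to 36.7 CPM for fibroblast-like, 2.77 to 20.7 CPM for immune and 24.8 to 56.8 CPM for mural markers. The fibroblast-like sum was 0 and 0.577 CPM in cycling cells, 26.6 and 19.9 in promyelinating cells and 36.7 and 10.5 in other cells, nearly all of it from Dcn. Pdgfrb had 0 CPM in cycling cells, 43.7 and 13.8 in promyelinating cells and 20.7 and 37.8 in other cells. The part of such cells in the results was not tested.

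A cell that enters mitosis needs cyclins and a kinase that they activate, kinases and checkpoint proteins that watch over the attachment of chromosomes, kinetochores that hold chromosomes to microtubules, motors that shape the spindle, condensin that compacts the chromosomes, and a ubiquitin system that destroys cyclins and securin when the chromosomes part. Transcripts of most of these genes accumulate in G2 and mitosis. Many of their promoters hold a cell cycle genes homology region (CHR), through which the DREAM complex represses them in resting cells, and CCAAT boxes, which bind the activator NF-Y. Immature Schwann cells divide in the perinatal nerve and leave the cell cycle as they take up an axon and start to myelinate.

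The promoters are shown because the members moved together, and because these elements are known from such genes. RefSeq windows on GRCm38.p6, from 250 bases before to 50 bases after the start, were at hand for 42 of the 50 members. The CHR was searched as TTTGAA and the CCAAT box as CCAAT on both strands, and matches of the 2 motifs that share letters were counted for both. Below are the 130 bases before the start of 6 members, 5′ to 3′ on the strand of the gene, with a CHR or CCAAT box in capitals on either strand (TTCAAA and ATTGG are the reverse complements). Ccnb1, Ube2c and Ckap2l were among the members nearly absent outside cycling cells, whereas Cdk1, Cdc20 and Smc2 kept some reads there.
Ccnb1 (chr13:100786487-100786616, minus strand): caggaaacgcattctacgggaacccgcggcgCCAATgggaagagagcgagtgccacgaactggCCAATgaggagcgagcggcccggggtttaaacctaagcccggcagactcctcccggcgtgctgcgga
Ube2c (chr2:164769799-164769928, plus strand): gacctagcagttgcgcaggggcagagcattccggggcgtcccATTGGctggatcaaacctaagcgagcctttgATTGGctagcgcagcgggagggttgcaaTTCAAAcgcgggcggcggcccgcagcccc
Ckap2l (chr2:129297213-129297342, minus strand): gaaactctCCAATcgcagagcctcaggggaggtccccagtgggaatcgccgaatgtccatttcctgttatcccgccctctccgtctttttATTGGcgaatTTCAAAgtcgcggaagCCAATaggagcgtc
Cdk1 (chr10:69352913-69353042, minus strand): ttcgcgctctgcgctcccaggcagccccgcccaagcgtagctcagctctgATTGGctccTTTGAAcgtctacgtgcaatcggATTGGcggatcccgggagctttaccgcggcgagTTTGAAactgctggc
Cdc20 (chr4:118437344-118437473, minus strand): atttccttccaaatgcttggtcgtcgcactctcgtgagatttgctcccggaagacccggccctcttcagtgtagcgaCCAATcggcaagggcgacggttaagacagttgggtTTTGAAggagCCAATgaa
Smc2 (chr4:52439091-52439220, plus strand): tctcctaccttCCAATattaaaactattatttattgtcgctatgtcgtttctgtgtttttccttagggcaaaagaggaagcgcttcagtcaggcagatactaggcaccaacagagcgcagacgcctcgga

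In these stretches Cdk1 held 2 CHR and 2 CCAAT matches, Cdc20 held 1 and 2, Ube2c 1 and 2, and Ckap2l 1 and 3. Ccnb1 held 2 CCAAT boxes and no TTTGAA, and Smc2 held 1 CCAAT box. Over the whole 300-base windows, 30 of 42 members (71.4%) held a CHR and 30 of 42 a CCAAT box, against 20.2% and 41.1% of the 27025 genes with a window. Both motifs stood together in 25 members (59.5%) and in 7.97% of all genes. Among the members, 7 of the 10 silent ones with a window and 23 of the 32 in between held a CHR. The 44 further mitotic genes with a window had a CHR in 56.8%, the 24 genes of DNA replication in 12.5%, and the 12 subunits or activators of the anaphase-promoting complex in 8.33%. A match of letters is a description of the window and not a measured site.

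**Figure D1:**
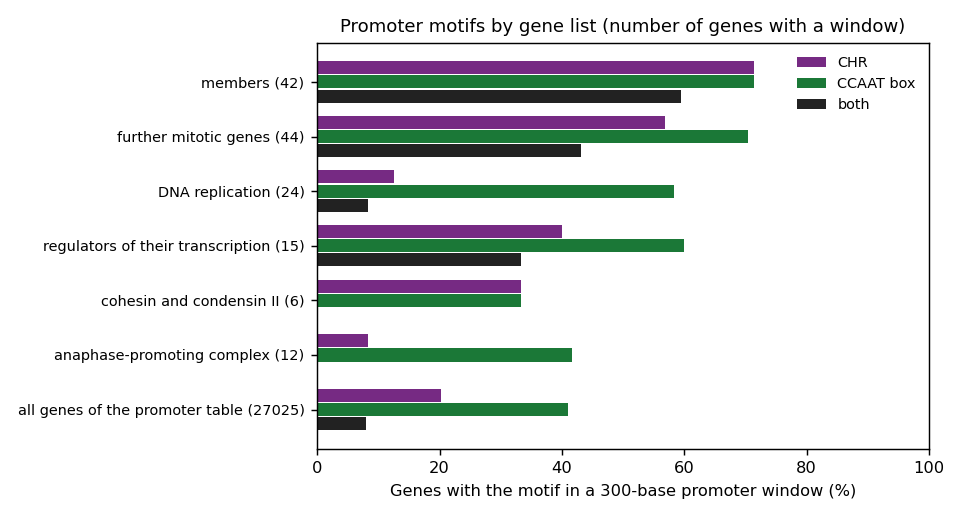
Percent of genes with a CHR, a CCAAT box or both in a 300-base RefSeq promoter window (x axis, %), for the members, 5 other lists and all genes, with the number of genes that have a window in parentheses. The members hold the CHR in 71.4%, the highest of the lists, against 20.2% of all genes, while CCAAT boxes are more common than in all genes in the replication genes too.

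All 50 members were higher in cycling cells than in promyelinating and in other cells on both plates, in CPM and in the share of cells with a read. The 2 cycling sums lay above all 4 noncycling sums for each of the 50, as for 10.6% of all genes tested. In cycling cells a member was read in a median of 65.6% ± 5.95 of the cells (SD of 2 plates), from 32% for Gtse1 to 95.5% for Smc4, and 38 members were read in at least 50% of them. The median share was 2.24% ± 0.743 in other cells and 1.68% ± 0.02 in promyelinating cells. With edgeR's quasi-likelihood test on the 6 sums, 32 of the 50 members were higher in cycling than in other cells at an adjusted p under 0.05 and none was lower, where 0.873% of the 13289 genes tested were called higher. Against promyelinating cells 44 members were higher and none was lower, where 3.82% of all genes were called higher. The median log2 fold change of the members was 5.60 against other cells and 10.37 against promyelinating cells, or 10.17 where members at 0 reads were set at their bound, and the median of all genes was -0.07 and 0.02. With the plate as a replicate block the counts were 31 and 44, where 0.986% and 4.14% of all genes were called higher. Without the filter on low counts they were 29 and 31, where 1.42% and 4.82% were. Without that filter Ccnb1, Bub1b, Pbk, Birc5, Ndc80, Nusap1 and Cks2 lost their call against other cells.

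The members that missed the threshold against other cells were 18 in number. Plk1, Aurka, Bub1, Cenpa, Tpx2, Kif11, Hmmr, Prc1, Ect2, Anln, Ttk, Dlgap5, Cdc25c, Gtse1, Ckap2, Tacc3, Ncapg and Ncaph lay above other cells on both plates. The levels of some of them in other cells differed between the plates. Plk1 had 0 reads in the other cells of plate 1 and 8.64 CPM in those of plate 2, and Aurka had 0.0751 and 8.05 CPM. All 50 members passed the filter on low counts, but only 39 would have passed on the noncycling sums alone, so that 11 were tested through the class in which they are high and had to differ. These were Plk1, Bub1, Bub1b, Kif11, Kif2c, Hmmr, Ttk, Ndc80, Gtse1, Arhgef39 and Ankle1. Their 5 calls against other cells and 9 against promyelinating cells count in the 32 and 44 but give no support. Of the 39, 27 were called higher than in other cells and 35 higher than in promyelinating cells.

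**Figure D2:**
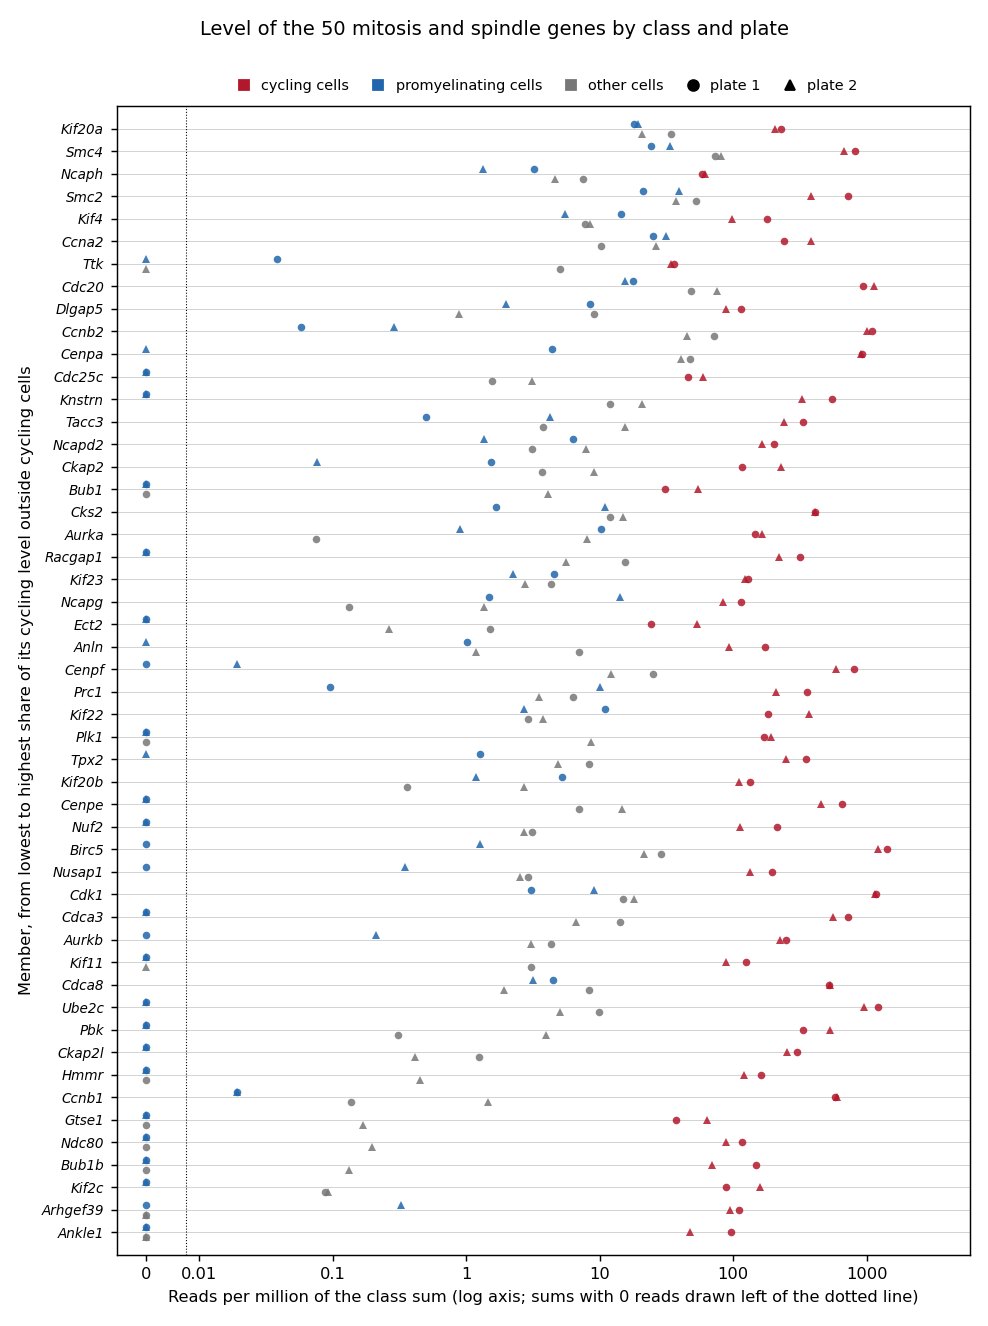
Level of each member in CPM of the summed reads of a class (x axis, log scale, 0 drawn at the left) on plate 1 (circles) and plate 2 (triangles), with members ordered from the lowest (bottom) to the highest level outside cycling cells relative to cycling cells. The cycling points lie to the right of all others in every row, and the 19 members with 0 reads in promyelinating cells on both plates have both blue points at 0.

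To ask which members were silent outside cycling cells, the level in each noncycling class was taken as a percent of that in cycling cells of the same plate. A member was called silent where it stayed under 1% in both classes on both plates, and not silent where it reached 10% on both plates in at least 1 of the classes. By this rule 11 members were silent, 38 lay between and 1, Kif20a, was not silent. Of all 13289 genes tested, 0.316% were silent and 92.6% were not silent, and 12881 would have passed the filter on noncycling sums alone. Among the silent members, Bub1b, Kif2c, Hmmr, Ndc80, Gtse1, Arhgef39 and Ankle1 passed that filter only through cycling cells. A low level elsewhere was thus built into their inclusion, and they give no support beside the share over all genes. The remaining silent members were Ccnb1, Pbk, Ckap2l and Ube2c. The count of silent members moved with the cut on Mki67 and Top2a, and was 2 where cells of 50 to 200 CPM were left among the noncycling cells. Closest to the cuts lay Ube2c, with at most 0.822%, and Cdca8, with up to 1.58%, and at the other end Kif20a, whose lower plate reached 10.1%, and Smc4 with 8.83%. Taken over both noncycling classes together, the median member stood at 1.91% of its level in cycling cells, with each member averaged over the plates. By plate the median was 1.58% and 1.71%. In promyelinating cells alone 32 members stayed under 1% and 19 had no read in 119 cells. No share over all genes tested was taken for the 32 and the 19, which are a description only.

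Among the genes of entry into mitosis, Ccnb1 (cyclin B1, which activates Cdk1 at the onset of mitosis) was silent and its close relative Ccnb2 was not. Ccnb1 had 575 and 605 CPM in the cycling cells of plates 1 and 2, 0.0192 CPM in the promyelinating cells of both plates, and 0.138 and 1.47 CPM in other cells. It exceeded other cells by 9.66 ± 1.05 in log2 (fitted difference ± SE; edgeR, adjusted p = 0.00434). Ccnb2 had 1102 and 1010 CPM in cycling cells, 0.0575 and 0.288 in promyelinating cells, and 72.1 and 44.8 in other cells, in which 24 of 392 cells held a read against 5 for Ccnb1. The excess of Ccnb2 over other cells, 4.30 ± 0.46 in log2 (adjusted p = 0.00385), was thus the smaller one, and both classes of noncycling cells lay far below cycling cells on each plate.

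Cdk1 itself, the kinase that drives the entry, had 1185 and 1148 CPM in cycling cells, 3.05 and 9.08 in promyelinating cells and 14.9 and 18.2 in other cells. It was higher in cycling than in other cells by 6.27 ± 0.52 in log2 (edgeR, adjusted p = 0.00138). The phosphatase gene Cdc25c, whose product removes the inhibitory phosphates from Cdk1, had 46.1 and 59.2 CPM in cycling cells, none in promyelinating cells, and 1.56 and 3.09 in other cells. Its excess over other cells missed the threshold (adjusted p = 0.0689), whereas that over promyelinating cells was at least 1824-fold by the floor of 3 reads over the class (edgeR, adjusted p = 0.00137). Of the 7 genes in the group, 5 were called higher against other cells and all 7 against promyelinating cells, and 2 were silent, Ccnb1 and Gtse1. The call of Gtse1 gives no support, since it passed the filter on low counts only through cycling cells.

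In the group of mitotic kinases and the checkpoint, 2 of 7 members were silent, Bub1b (BubR1, a checkpoint protein at unattached kinetochores) and Pbk (a kinase of mitotic cells). Bub1b had 147 and 69.9 CPM in cycling cells, no read in promyelinating cells, and 0 and 0.133 CPM in other cells. Pbk had 333 and 529 CPM in cycling cells, none in promyelinating cells, and 0.306 and 3.97 CPM in other cells. Aurkb, the kinase of the chromosomal passenger complex, had 249 and 225 CPM in cycling cells, 0 and 0.211 in promyelinating cells, and 4.35 and 3.06 in other cells, where all of its reads came from 2 cells. Only 3 of the 7, Aurkb, Bub1b and Pbk, were called higher than in other cells. The call of Bub1b gives no support, since it passed the filter on low counts only through cycling cells. Plk1, Aurka, Bub1 and Ttk each had no more than 0.0751 CPM in the other cells of one plate and at least 4.08 CPM in those of the other.

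Of the passenger complex and the centromere, Birc5 (survivin) had 1419 and 1226 CPM in cycling cells, 0 and 1.27 in promyelinating cells, and 28.7 and 21.5 in other cells. Against other cells it passed the test (log2 fold change 5.85 ± 1.03; edgeR, adjusted p = 0.0436), but not with the plate as a block (adjusted p = 0.226). Cenpe, a kinetochore motor, had 659 and 459 CPM in cycling cells, none in promyelinating cells, and 7.04 and 14.7 in other cells, 5.83 ± 0.47 lower than in cycling cells in log2 (adjusted p = 0.00175). Cenpf, a large kinetochore protein, had 803 and 594 CPM in cycling cells, 0 and 0.0192 in promyelinating cells and 25.1 and 12.1 in other cells.

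Ndc80, the microtubule-binding core of the kinetochore, was the only silent member of this group, with 117 and 88.5 CPM in cycling cells, no read in promyelinating cells, and 0 and 0.197 CPM in other cells, all from 1 cell. Nuf2, its partner in the same complex, had 211 and 112 CPM in cycling cells, none in promyelinating cells, and 3.10 and 2.71 in other cells, from 3 cells. Knstrn, a spindle and kinetochore adaptor, had 550 and 331 CPM in cycling cells, none in promyelinating cells, and 11.9 and 20.7 in other cells. In all, 7 of the 8 members passed against other cells, all but Cenpa, and all 8 passed against promyelinating cells. Ndc80 is in both counts, but its calls give no support, since it passed the filter only through cycling cells.

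Of the 11 spindle genes, 3 were silent, Kif2c, Hmmr and Ckap2l, and 5 were called higher in cycling than in other cells. Kif2c is among these 5, but its call gives no support, since it passed the filter only through cycling cells. Kif2c, a kinesin that takes microtubules apart, had 88.4 and 160 CPM in cycling cells, none in promyelinating cells, and 0.0876 and 0.0926 in other cells. Ckap2l, a protein of the spindle poles, had 303 and 252 CPM in cycling cells, none in promyelinating cells, and 1.25 and 0.416 in other cells. Tpx2, which activates Aurka on the spindle, had 352 and 247 CPM in cycling cells, 1.27 and 0 in promyelinating cells, and 8.29 and 4.89 in other cells. Tpx2 missed the threshold against other cells (edgeR, adjusted p = 0.107) and passed it against promyelinating cells (adjusted p = 0.00904).

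At the central spindle, whose proteins guide the cut between daughter cells, Prc1 and Racgap1 differed in their calls. Prc1, which bundles antiparallel microtubules, had 357 and 211 CPM in cycling cells, 0.0959 and 10.1 in promyelinating cells, and 6.29 and 3.52 in other cells, and missed the threshold in both comparisons (edgeR, adjusted p = 0.179 and 0.0649). Rccd1, a gene whose exons overlap those of Prc1, had 0.134 and 9.10 CPM in promyelinating cells of plates 1 and 2. The part of shared reads was not tested. Racgap1, part of centralspindlin, had 320 and 219 CPM in cycling cells, none in promyelinating cells, and 15.4 and 5.63 in other cells, with an excess over other cells of 4.80 ± 0.61 in log2 (adjusted p = 0.0127). Arhgef39, a guanine nucleotide exchange factor, had 110 and 93.9 CPM in cycling cells, 0 and 0.326 in promyelinating cells from 1 cell, and no read in 392 other cells. By the floor of 3 reads over the class it was at least 11339-fold higher in cycling than in other cells. This difference gives no support, since Arhgef39 passed the filter on low counts only through cycling cells. Arhgef39 was the silent member of this group of 8, and Kif20a the one that was not silent.

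The 3 members of the anaphase ubiquitin system and mitotic exit were all called higher in both comparisons. Ube2c, the E2 enzyme that works with the anaphase-promoting complex, had 1208 and 962 CPM in cycling cells, none in promyelinating cells, and 9.93 and 5.07 in other cells. It exceeded other cells by 7.30 ± 0.45 in log2 (edgeR, adjusted p = 0.00119) and promyelinating cells at least 37798-fold. Cdc20, the activator that the checkpoint restrains, had 936 and 1127 CPM in cycling cells, 17.8 and 15.4 in promyelinating cells, and 48.4 and 76.1 in other cells, with an excess over other cells of 4.18 ± 0.28 (adjusted p = 0.000843). Cdca3, a substrate adaptor of mitotic entry, had 729 and 557 CPM in cycling cells, none in promyelinating cells, and 14.3 and 6.66 in other cells. Ube2c was silent and Cdc20 was read in 61 of 392 other cells.

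The 5 condensin genes, whose products compact the chromosomes, contained no silent member. They had a median of 7.99% of their cycling level outside cycling cells, the highest of the groups, or 6.16% and 6.32% by plate. Smc4 had 823 and 678 CPM in cycling cells, 24.3 and 33.5 in promyelinating cells, and 72.7 and 81.3 in other cells, and was read in 98.1% and 93.0% of cycling cells but also in 28% and 30% of other cells. Smc2, which pairs with it, had 729 and 386 CPM in cycling cells, 21.1 and 39.2 in promyelinating cells, and 52.7 and 37.6 in other cells. Ncaph, a non-SMC subunit of condensin I, had 58.4 and 61.1 CPM in cycling cells, 3.22 and 1.33 in promyelinating cells, and 7.5 and 4.63 in other cells. Smc4 (log2 fold change over other cells 3.42 ± 0.27; edgeR, adjusted p = 0.00127) and Smc2 (3.76 ± 0.45, adjusted p = 0.00632) passed the test and Ncaph did not (adjusted p = 0.105). None of these 3 shares exon sequence with another gene in GENCODE M21.

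Ankle1, a DNA nuclease that cuts chromatin bridges at the end of division, was the only member with no read outside cycling cells. It had 95.9 and 47.7 CPM in cycling cells, in 38 of 110 cells, and none in the 119 promyelinating and 392 other cells, and it was at least 8033-fold higher than in other cells. This difference gives no support, since Ankle1 passed the filter on low counts only through cycling cells. A count of 0 in 119 promyelinating cells allows a share of up to 2.52% for counting error alone.

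Several members that were read widely outside cycling cells were read there almost only together with a neighbor on the opposite strand. The exons of 16 members overlap those of another gene in GENCODE M21, in 15 cases of a gene on the other strand, and whether the counting used strand is not stated in the sources used here. Kif20a, a kinesin of the central spindle, had 228 and 204 CPM in cycling cells, 18.1 and 19.4 in promyelinating cells, and 34.1 and 20.7 in other cells. Its exons share 1271 bases, 29.3% of its exonic length, with Cdc23, a subunit of the anaphase-promoting complex. Among noncycling cells Kif20a was read in 78.4% and 75.0% of those with a read of Cdc23 and in 1.09% and 1.49% of those without. In noncycling cells without a Cdc23 read, Kif20a was set against its level over all cycling cells. It stood at 0 and 0.594% of that in promyelinating cells and at 0.453% and 0.242% in other cells.

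Ccna2 (cyclin A2, of S phase and early mitosis) showed the same with Exosc9, a subunit of the RNA exosome with which it shares 510 exonic bases. The gene lies at chr3:36564865-36572150 (GRCm38, minus strand). It had 241 and 385 CPM in cycling cells, 25.2 and 31.3 in promyelinating cells, and 10.3 and 26.5 in other cells. Outside cycling cells it was read in 91.2% and 98.5% of the cells with Exosc9 and in 0% and 0.478% of those without. Kif4, a chromokinesin on the X chromosome, had 181 and 98.5 CPM in cycling cells, 14.4 and 5.51 in promyelinating cells, and 7.80 and 8.44 in other cells. Its 832 exonic bases shared with Pdzd11 came with reads of Kif4 in 84.3% and 82.0% of noncycling cells with Pdzd11 and in 0.610% and 0% of those without. Prc1 was read in 66.7% and 90.0% of the 9 and 10 noncycling cells with Rccd1 and in 1.33% and 0.375% of the rest.

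For Cdc20 and Elovl1, a fatty acid elongase, the overlap is 53 bases and the tie was looser, with Cdc20 in 12.1% and 22.4% of noncycling cells with Elovl1 and in 3.85% and 5.56% of those without. With Tmem129 no such tie was seen on plate 1, since Tacc3 was read in 0% and 13.5% of noncycling cells with that gene and in 3.33% and 3.75% without. If, for each of these members, noncycling cells with a read of the overlapping gene were left out, 16 members were silent and none was not silent. Ccna2, Cdc20, Kif20a, Kif4 and Prc1 were those added to the silent ones. The cycling level was still taken over all cycling cells, with or without the overlapping gene, so this step cannot decide whether these members are silent. For Cdc20 the step left only 3 and 1 promyelinating cells and 49 and 71 other cells on plates 1 and 2. In cycling cells the same pairs were also read together. Kif20a was found in 97.1% and 100% of cycling cells with Cdc23 and in 5.56% and 9.52% of those without, and Ccna2 in 100% of those with Exosc9 on both plates and in 38.9% and 16.7% of those without. The part that shared reads have in the levels of either gene of a pair was not tested.

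**Figure D3:**
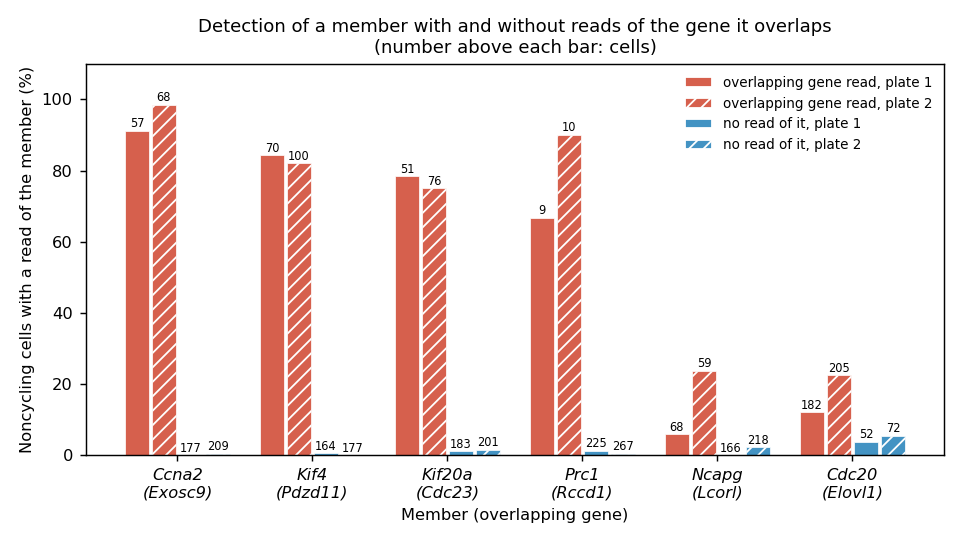
Percent of noncycling cells with a read of a member (y axis, %), split by whether the cell also had a read of the gene whose exons overlap the member (red) or not (blue), on plate 1 (plain) and plate 2 (hatched), with the number of cells above each bar. For Ccna2, Kif4 and Kif20a the red bars stand at 75.0% to 98.5% and the blue bars at 1.49% or less.

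Between promyelinating and other cells, 13 members were lower in promyelinating cells and none was higher at an adjusted p under 0.05 (edgeR), where 1.29% of all genes were called lower. These were Ccnb2, Cdc25c, Aurkb, Cenpe, Cenpf, Nuf2, Knstrn, Ckap2l, Racgap1, Cdc20, Cdca3, Ube2c and Smc4. Ccnb2 fell by 8.32 ± 0.59 in log2 (adjusted p = 0.000672), Cdc20 by 1.82 ± 0.26 (adjusted p = 0.00996) and Smc4 by 1.33 ± 0.25 (adjusted p = 0.0369). For the 8 that had no read in promyelinating cells, other cells were higher by at least 28.4-fold for Ckap2l up to at least 572-fold for Knstrn by the floor of 3 reads. With the plate as a replicate block 14 were lower, where 1.54% of all genes were. The median log2 fold change of the 50 members was -4.07, against -0.07 for all genes. It was -2.89 with members at 0 reads at their bound and the members with no more than 3 reads in both classes left out. On both plates 28 of 50 members had the lower level in promyelinating cells, as did 36.4% of all genes, and 2, Ccna2 and Ncapg, had the higher one, as did 23.3% of all genes. Ccna2 shares exons with Exosc9, and Ncapg shares 944 exonic bases with Lcorl on the opposite strand. Lcorl had 64.8 and 90.7 CPM in promyelinating and 20.7 and 15.2 CPM in other cells. Ncapg was read in 5.88% and 23.7% of noncycling cells with Lcorl and in 0% and 2.29% of those without. The part of shared reads was not tested. For 10 members, none of them called, the plates went opposite ways, among them Aurka and Prc1.

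Apart from Smc4 and Cdc20, the reads behind these 13 calls lay in few cells. Smc4 was read in 114 of 392 other cells and 27 of 119 promyelinating cells, and Cdc20 in 61 and 13. Aurkb was read in 2 of 392 other cells and 1 of 119 promyelinating cells, so that the share of cells was not the lower one in promyelinating cells, 0.840% against 0.510%. Nuf2 was read in 3 of 392 other cells and Ckap2l in 5. Knstrn, Racgap1 and Cenpf were each read in 22 of 392 other cells (5.61%) and Ccnb2 in 24 (6.12%), against 0, 0, 1 and 3 of 119 promyelinating cells. The summed level of genes that respond to dissociation moved in the same direction, with 2205 and 2418 CPM in promyelinating cells, 5842 and 6380 in other cells and 4726 and 7160 in cycling cells, and its part in these results was not tested. Over the 13, the 3 cells richest in a member held from 18.8% of its reads in other cells for Smc4 to all of them for Aurkb and Nuf2. Reads of Smart-Seq2 are copies made by PCR, so bounds and intervals from them cover counting error only.

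Seen cell by cell, the members came as a group. A cycling cell held reads of a median of 36 members on plate 1 and 33 on plate 2, with a range over both plates of 1 to 50. A promyelinating cell held a median of 2 and at most 7, and an other cell a median of 2 and at most 26. The summed level of the 50 members had a median of 17478 CPM in cycling cells, 157 in promyelinating cells and 247 in other cells. The spread within the cycling class was wide, since 40 of 110 cells held at least 40 members and 11 held fewer than 10. Those 11 had a median of 130 CPM of Mki67 and 88.6 CPM of Top2a, against 685 and 798 CPM in the 80 cells with 25 or more members. On plates 1 and 2 they had a median of 17 and 3 of the replication genes read, from 4 and 7 cells, against 9 on both plates in the 80 cells.

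**Figure D4:**
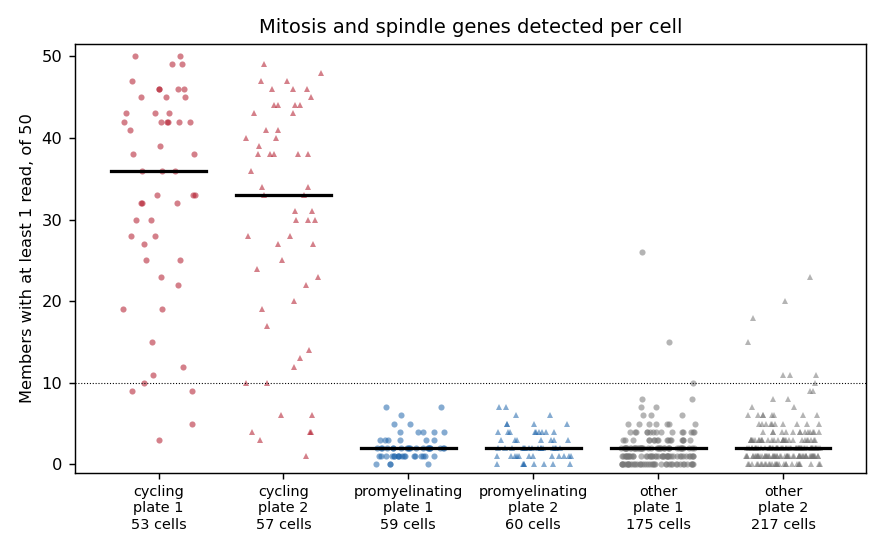
Number of the 50 members with at least 1 read in each cell (y axis), by class and plate, with the median as a black bar and a dotted line at 10 members. Cycling cells spread from 1 to 50, all promyelinating cells lie at 7 or fewer, and 11 other cells reach 10 or more.

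In the cycling cells the level of a member was set against the summed level of the other 49 (Spearman's rank correlation per plate over 53 and 57 cells, which share library depth and so serve as a description). The mean correlation of the plates had a median of 0.54 and ran from 0.22 for Ncaph to 0.76 for Cdc20. Cenpf, Ccnb1, Cenpa and Ube2c came next to Cdc20, with 0.73, 0.73, 0.73 and 0.72. Ncaph, Ncapd2, Smc2 and Ncapg, with 0.22, 0.29, 0.31 and 0.32, were 4 of the 6 lowest, while Smc4, also a condensin gene, had 0.57.

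Per length of exon, the levels of the members in cycling cells spanned 97.0-fold. Ccnb2 led with 690 ± 42.3 reads per kilobase and 1000000 reads (RPKM; SD, n = 2), followed by Cks2 (596 ± 1.18), a small subunit of Cdk1, and Cdc20 (552 ± 72.2), which overlap within their spread. Ube2c (417 ± 66.7) and Birc5 (389 ± 40.1) came next and did not differ beyond their spread. The lowest were Ttk (7.11 ± 0.221), a checkpoint kinase, and Ect2 (7.24 ± 3.83), the exchange factor that starts the cleavage furrow. Reads of a member were shared among many cycling cells, with a median of 23.2% in the richest 3 cells, against 80.3% in the richest 3 other cells.

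The cut on Mki67 and Top2a did not take up every cell with these transcripts. Among the 392 other cells, 11 held 10 or more members, 3 on plate 1 and 8 on plate 2, and these 11 held 29.7% of all member reads of the class. They had a median of 15 members and 4926 CPM of all members together, and 6 of them had no read of Mki67 or Top2a. Ccnb2 was read in 8 of them, Cdc20 and Smc4 in 9, Birc5, Cenpa and Cks2 in 8, whereas Ccnb1 was read in 3 and Aurkb, Bub1, Kif11, Ect2, Ndc80, Arhgef39 and Ankle1 in none. For Ccnb1, 93.8% of the reads in other cells came from these 11, for Hmmr and Gtse1 all of them, and for Ccna2, Smc4 and Smc2 no more than 9.18%. Among the members called lower in promyelinating cells, these 11 cells held 94.3% of the other-cell reads of Cdc25c, 75.4% for Nuf2, 57.8% for Cdca3, 53.4% for Cenpe and 47.2% for Cenpf, but 0 for Aurkb and 7.72% for Ckap2l. No promyelinating cell held 10 members.

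Other lists of cell cycle genes were set beside the members. Over all genes tested the median level outside cycling cells was 123% and 119% of that in cycling cells on plates 1 and 2. It was 139% where the 2 plates were first averaged per gene, as in the list medians below. Such a median can lie outside the medians of both plates. Of all genes tested, 92.6% were not silent. Of 51 further mitotic genes tested, 35 passed the filter on noncycling sums alone, and the rest had to differ and give no support. Of the 51, 21 were higher in cycling than in other cells and 35 higher than in promyelinating cells. Of all genes, 0.873% and 3.82% were. In promyelinating cells 9 were lower than in other cells, against 1.29% of all genes. Silent were 7, against 0.316% of all genes. Their median level outside cycling cells was 3.09% of that in cycling cells, or 1.29% and 2.49% by plate. At the low end of the list stood Kif18b and Fam83d, which had no read outside cycling cells and so were tested only through cycling cells. Fam83d had 88.4 and 55.5 CPM there. At the high end stood Zwint (83.5%) and Pttg1, which encodes securin, with 130 and 102 CPM in cycling cells and 168 and 142 CPM in other cells. The 30 genes of DNA replication stood at a median of 17%, or 14.2% and 15.7% by plate, and 28 passed the filter on noncycling sums alone. Of the 30, 5 were called higher than in other cells, 13 were called higher than in promyelinating cells and 0 were silent. In promyelinating cells 7 were called lower than in other cells. The list ran from Rrm2, with 0.808% on plate 1 and 3.01% on plate 2, to Pola1, with 14.2% and 138%. The plates thus differed several-fold at both ends.

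Of 18 regulators of transcription of these genes, 1 was higher in cycling than in other cells, 2 were higher than in promyelinating cells, and 1 was lower in promyelinating than in other cells. Foxm1, the forkhead factor of G2 genes, was the 1 that passed in all 3, with 141 and 98.8 CPM in cycling cells, none in promyelinating cells, and 4.42 and 2.65 in other cells (edgeR, adjusted p = 0.0101 and 0.00355). E2f7 was the other gene called against promyelinating cells, at 33.5 and 58.8 CPM in cycling cells and none in promyelinating cells. Of the 18 genes, 16 passed the filter on noncycling sums alone. With 1.39 and 0.0174 CPM in other cells, E2f7 stood as low outside cycling cells as members tested only through cycling cells. Its call gives no support. E2f4 stood at 37.5% of its cycling level on plate 1 and at 257% on plate 2, and Nfya at 67.7% and 144%, so each lay below 100% on plate 1 and above it on plate 2. The median of the list was 39.1%.

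The anaphase-promoting complex itself, which Ube2c and Cdc20 serve, was not silent in any of its 13 listed genes, like most genes tested, and stood at a median of 74.4%. At its low end Fzr1 had 13.9% and 25.3% and Cdc23 30.2% and 20.1% on plates 1 and 2. At its high end Anapc4 had 50.9% and 263% and Anapc7 88% and 186%, so both were above 100% on plate 2 alone. Cdc23, with 204 and 227 CPM in cycling cells and 69.0 and 47.1 CPM in other cells, was the 1 of these 13 called higher than in other cells (edgeR, adjusted p = 0.0321), and it is the gene whose exons Kif20a overlaps. Against promyelinating cells 3 of the 13 were called higher. Cohesin and condensin II, with 8 genes, had a median of 56.0%, or 44.2% and 38.9% by plate. They had 0 calls against other cells, and 2 were called higher than in promyelinating cells. At the high end Stag2 had 39.2% and 135% and Stag1 122% and 38.1% on plates 1 and 2, and at the low end Ncapg2 had 6.53% and 0.425%. Ncapg2, a subunit of condensin II, had 52.7 and 32.4 CPM in cycling cells and 4.57 and 0.156 CPM in other cells.

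**Figure D5:**
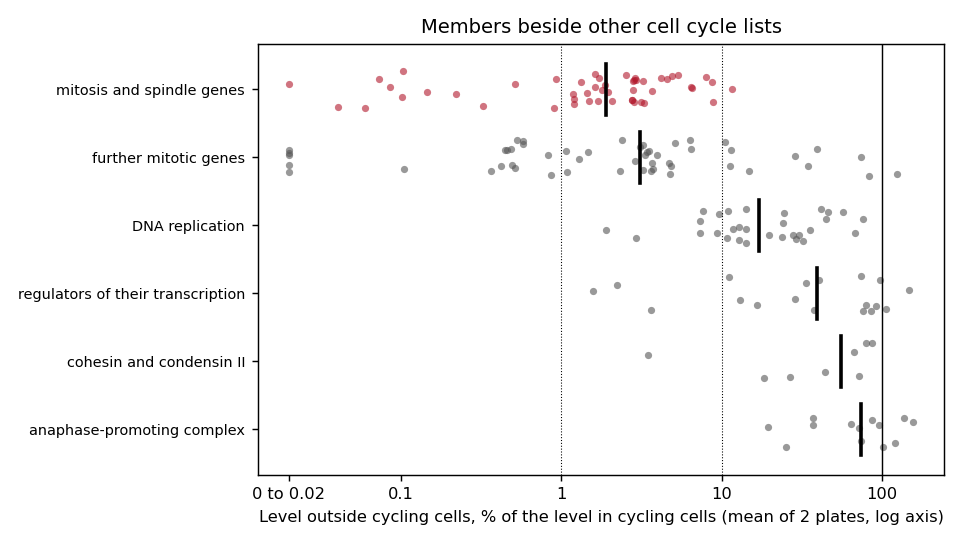
Level outside cycling cells as a percent of the level in cycling cells (x axis, log scale, mean of 2 plates, values up to 0.02% drawn at the left) for each gene of the members (red) and of 5 other lists (gray), with the median of a list as a black bar and lines at 1, 10 and 100%. The medians run from 1.91% for the members over 17% for DNA replication to 74.4% for the anaphase-promoting complex.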

How the data were processed

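Single eYFP-positive cells of P1 sciatic nerves were sequenced after Smart-Seq2 on 2 plates. The authors deposited raw read counts per gene and well. The submitters' processing notes name bcl2fastq, STAR 2.6.1c, featureCounts and GRCm38.p5, whereas the published methods name a human build although the gene IDs are mouse. Whether counting used strand is not stated in the sources used here. All columns belonged to a sample of the series.

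Wells with fewer than 1500 genes were left out. The median depth was 875315 reads per cell. Mki67, Top2a and Ncmap set the classes and were left out of the tests. Counts were summed per class and plate (6 sums), and 13289 genes passed filterByExpr. The main test was edgeR 4.0.16 (quasi-likelihood, TMM, no plate term) in R 4.3.3, with Benjamini-Hochberg adjustment over all genes tested, and it was tested on simulated data. The p-values measure the spread between 2 plates only.

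Classes on a plate come from the same mice, so the plate pairs them. Plate deviations of the classes correlated with r = 0.102, 0.207 and 0.151 over 3713 genes. Alternatives were the plate as a block, DESeq2 1.42.0, limma 3.58.1, other filters, cuts and read minimums, thinning to 100000 reads, and leaving out a plate.

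Folds against 0 reads used a floor of 3 reads over both plates of a class. Exon lengths and overlaps came from GENCODE M21 and promoters from RefSeq. Per-plate values were given in full for the 5 members with the highest and the 5 with the lowest level outside cycling cells, those called between promyelinating and other cells, and 1 per role with the most reads in cycling cells. Further members were named as examples, and their choice followed their values. The members and lists were chosen with earlier results of these data known.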

Additional observations from a re-analysis of the deposited data

Results flagged for a closer look

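The 122 wells left out for holding fewer than 1500 genes also contained reads of the members. Summed over these wells the 50 members took 1249 CPM (counts per 1000000 reads), with 1402 on plate 1 and 624 on plate 2. The same sum was 18450 and 16411 in cycling cells, 189 and 210 in promyelinating cells, and 573 and 555 in other cells. A member was read in 46 of the wells, and 2 wells, both on plate 1, held 10 or more members, with at most 14. These wells entered no comparison, and no test was made.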

How the results depend on the processing

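Fold changes under the alternatives were recomputed for 67 values, those of the members given in full and, between promyelinating and other cells, those called. None of these reversed its sign, and of the recomputed values 29 lost their call and 11 gained one. The other 709 counted as unchanged. For values from 1 plate alone, or with no adjusted p, this refers to the sign only. Outside the 67, 10 members not called between promyelinating and other cells went opposite ways on the 2 plates, so that 1 plate alone would turn their sign. With the plate as a replicate block 31, 44 and 14 members were called in cycling against other, cycling against promyelinating and promyelinating against other cells. Calls against other cells were 49 with limma on log2(mean CPM + 1), where 1.39% of all genes were called higher. Between promyelinating and other cells, DESeq2 called 21, with 20 lower and 1, Ncapg, higher, where 5.16% of all genes were called lower. Ncapg is the member whose exons overlap those of Lcorl. With the cycling cut at 200 CPM 23 were lower, where 1.39% of all genes were.

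The count of silent members was 7 by absolute CPM (under 1) and 2 with the cycling cut at 200 CPM. Without 1 plate, which leaves 1 sum per class and no test, it was 13 to 15. The count of members that were not silent was 12 by absolute CPM (10 or more), 7 with cuts of 0.5% and 5%, and 0 with cuts of 2% and 20%, with cells of at least 1000 genes, with the cycling cut at 20 CPM, and with noncycling cells that held a read of an overlapping gene left out. The last alternative was chosen after seeing the data. The count was 4 to 4 without 1 plate. Without plate 1 these were Kif20a, Ncapg, Smc2 and Smc4, and without plate 2 Ccna2, Kif20a, Ncaph and Ttk.

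The mean over plates of the median number of members per cycling cell was 34.5. It was 31.5 at 5 reads or more, 31.5 after thinning to 100000 reads, and 38.5 with cells of at least 2500 genes. The causes were not tested. Having 2 plates, and reads that fell in few cells, limits the precision of levels outside cycling cells.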
